A study of Mus musculus with 6 samples.

Results

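The endothelial and mural cell genes of the hippocampal vasculature were compared between wild-type mice and *Mutyh*-/- mice homozygous for the *App* NL-G-F knock-in allele (called NL-G-F·*Mutyh* mice). The members were 40 listed genes, 31 of the barrier endothelium and 9 of mural cells, found by gene symbol among 41345 transcript clusters that covered 22180 genes with a single symbol. A transcript cluster is the set of array probes that together measure 1 gene or transcript, and for the 3 members with several (*Slc2a1*, *Foxq1*, and *Rgs5*) the brightest one on average over the 6 arrays was used. A transcript cluster was found for 39 members, and *Ly6a* was not analysed here. The groups were tested for 37 members, 29 endothelial and 8 mural, whose mean reached an intensity of 50, a log2 signal of 5.64, in at least 1 group.

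Hippocampal total RNA came from 3 wild-type and 3 NL-G-F·*Mutyh* females, all 6 months old and perfused with saline, each hybridised to its own array (GeneChip Mouse Gene 2.0 ST). NL-G-F·*Mutyh* mice were homozygous for an *App* allele with the Swedish, Arctic, and Iberian mutations, expressed from the endogenous promoter, and lacked *Mutyh*, the gene of an adenine DNA glycosylase, on both chromosomes. Both genotypes were kept as inbred lines and are those of the whole animal, so that vessel cells were not targeted as such, and knock-in mice that retain *Mutyh* were not used here. The wild-type arrays were taken over from an earlier series, so that genotype and any difference in handling between the series cannot be told apart, and the separate effects of the *App* alleles and of *Mutyh* loss cannot be told apart either. Signals are log2 values, differences are NL-G-F·*Mutyh* minus wild type on that scale, and percentages of wild type are 2 to the power of the difference.

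Endothelial cells of brain capillaries are joined by tight junctions of claudins and occludin, take up nutrients through dedicated carriers, and return lipophilic compounds to the blood through export pumps. Together these properties form the blood-brain barrier. Mural cells, the pericytes of capillaries and the smooth muscle cells of arterioles, lie in the basement membrane on the outer side of the endothelium, and pericytes recruited through platelet-derived growth factor receptor beta are needed for the barrier to form. In whole hippocampal tissue, vessel cells are a small share of the cells, and fewer vessel cells and less RNA per vessel cell cannot be told apart. Some members are also transcribed in other cells of the tissue, whose part in the signals was not tested.

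None of the 37 tested members passed the adjusted test (limma, adjusted *p* under 0.05), against 0.0614% of all 21159 tested transcript clusters. Of the 29 endothelial members, *Robo4* and *Mfsd2a* were higher in NL-G-F·*Mutyh* mice and *Cldn5* was lower at an unadjusted *p* under 0.05, whereas none of the 8 mural members passed it in either direction. Over all tested transcript clusters 8.88% were higher and 4.75% lower at that threshold, so that these counts were near the background. The lowest adjusted *p* among the members was 0.255, for *Robo4*. The median difference was 0.01 for the endothelial members, 15 of them above 0 and 14 below, and 0.00 for the mural members, 3 above 0 and 5 below. Over all tested transcript clusters the median difference was 0.02, with quartiles of -0.08 and 0.13, and 43.2% were below 0.

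The width of the intervals shows which differences these 6 arrays leave room for. For 6 of the 29 endothelial and 3 of the 8 mural members the 95% interval of the difference lay within a change of 1.2-fold in either direction. Within 1.5-fold lay the intervals of 27 endothelial members, all but *Cldn5* and *Pltp*, and of 7 mural members, all but *Acta2*. The median standard error of a difference was 0.10 for the members and 0.10 for all tested transcript clusters.

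**Figure D1:**
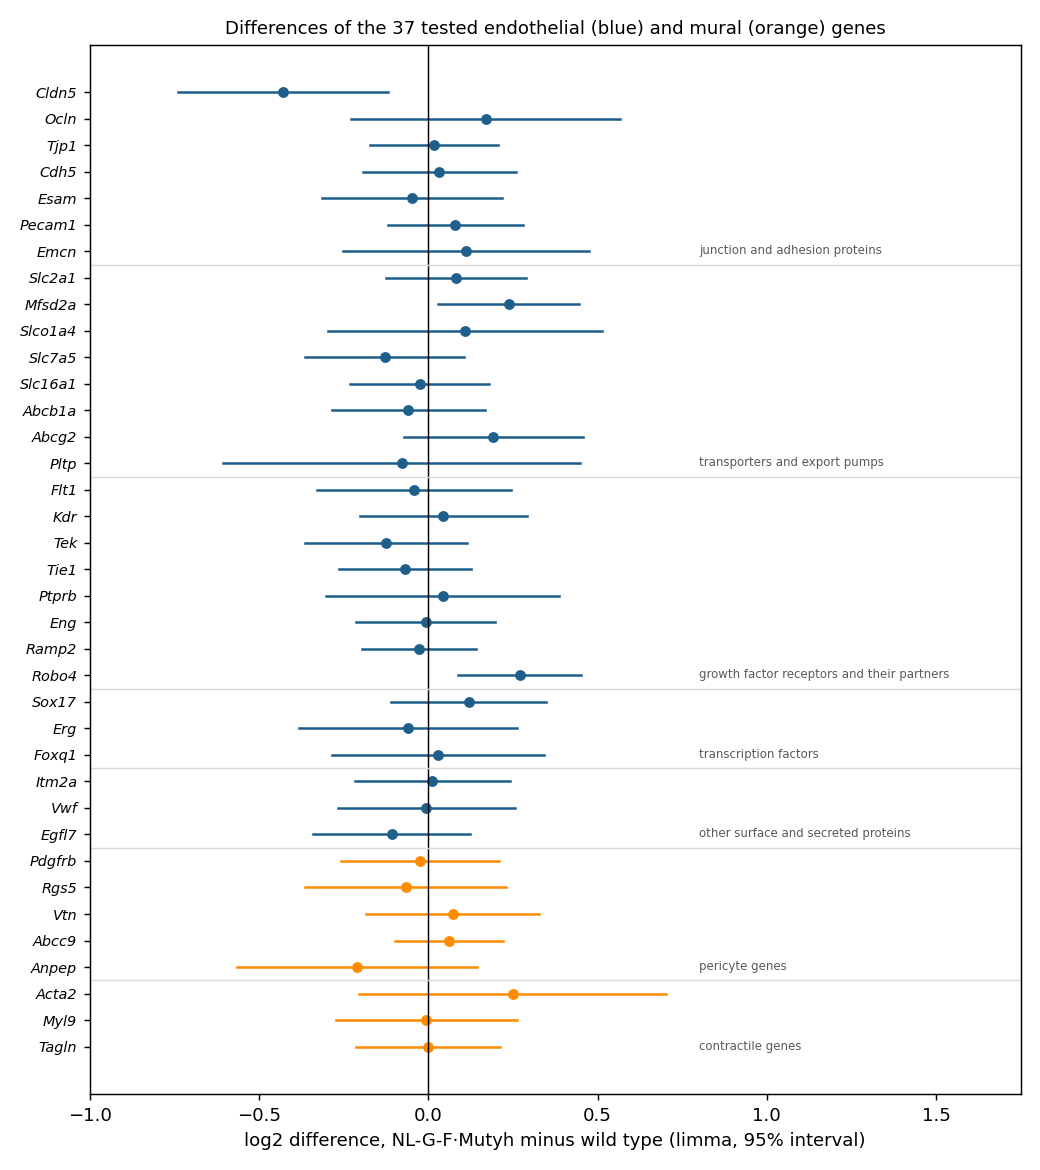
Log2 difference of each tested endothelial gene (blue, 29 genes) and mural gene (orange, 8 genes), ordered by role. Points are NL-G-F·*Mutyh* minus wild type with the 95% interval of limma's moderated test, 3 mice per group. The intervals of *Cldn5* (below 0), *Mfsd2a*, and *Robo4* (above 0) leave out 0, and all others include it.

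The promoters of the 3 members with the smallest *p* and of *Myl9* are shown to give the sequence behind the measured transcripts. They are the 250 bases before the annotated start in RefSeq (GRCm38.p6), in the direction of transcription. Among the 27 members searched, only the *Myl9* window held the serum response factor motif in its exact form. Capitals mark AGGAAG, a form of the site that ETS factors such as ERG bind, in *Robo4*. In *Myl9* they mark the CArG box in its exact form, which serum response factor binds in genes of contractile proteins.
Cldn5: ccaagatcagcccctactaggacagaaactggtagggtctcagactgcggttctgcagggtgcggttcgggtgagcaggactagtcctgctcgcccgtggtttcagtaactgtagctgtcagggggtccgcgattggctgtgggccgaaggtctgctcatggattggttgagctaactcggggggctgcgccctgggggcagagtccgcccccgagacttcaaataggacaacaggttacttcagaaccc
Robo4: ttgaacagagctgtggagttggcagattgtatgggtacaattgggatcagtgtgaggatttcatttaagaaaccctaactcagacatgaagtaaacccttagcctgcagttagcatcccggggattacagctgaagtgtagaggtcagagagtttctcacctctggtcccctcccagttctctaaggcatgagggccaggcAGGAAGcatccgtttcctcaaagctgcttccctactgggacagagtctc
Mfsd2a: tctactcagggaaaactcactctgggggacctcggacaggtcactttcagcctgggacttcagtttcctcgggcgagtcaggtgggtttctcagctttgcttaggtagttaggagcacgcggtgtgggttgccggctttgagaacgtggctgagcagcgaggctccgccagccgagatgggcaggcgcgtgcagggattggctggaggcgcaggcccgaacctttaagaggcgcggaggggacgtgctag
Myl9: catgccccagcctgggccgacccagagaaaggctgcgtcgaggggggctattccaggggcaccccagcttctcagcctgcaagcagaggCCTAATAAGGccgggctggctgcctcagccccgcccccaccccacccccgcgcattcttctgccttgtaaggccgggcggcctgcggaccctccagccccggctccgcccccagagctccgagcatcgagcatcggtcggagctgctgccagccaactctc
The *Cldn5* window is chr16:18776597-18776846 on the plus strand, that of *Robo4* chr9:37401722-37401971 on the plus strand, that of *Mfsd2a* chr4:122961189-122961438 on the minus strand, and that of *Myl9* chr2:156775214-156775463 on the plus strand. The capitals begin 49 bases before the start in *Robo4* and 161 bases before it in *Myl9*. Promoters of 27 of the 40 listed members were found, with 35 windows, and both strands were searched. The other members were not searched for either motif. AGGAAG stood in 29.5% of all 32851 promoter windows, in 15 member windows and in 12 members, namely *Abcb1a*, *Abcg2*, *Egfl7*, *Emcn*, *Eng*, *Erg*, *Flt1*, *Itm2a*, *Ly6c1*, *Robo4*, *Slco1a4*, and *Tie1*. The CArG box stood in 1.47% of all windows and in 1 member window, and the *Cldn5* and *Mfsd2a* windows held neither motif in these exact forms. Variant forms of either site were not searched.

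Among the 7 genes of junction and adhesion proteins, *Cldn5* had the largest difference of the tested members in size. It encodes claudin-5, the main claudin of brain endothelial tight junctions. Its signals were 7.01, 7.48, and 7.41 on wild-type arrays 1 to 3 and 6.85, 6.94, and 6.81 on NL-G-F·*Mutyh* arrays 1 to 3. The groups did not overlap, although wild-type replicate 1 lay closer to the NL-G-F·*Mutyh* arrays than to the other wild-type arrays. The mean was 7.30 ± 0.25 (SD, n = 3) for wild-type and 6.87 ± 0.07 for NL-G-F·*Mutyh* mice, a difference of -0.43 (standard error 0.13, 95% interval -0.74 to -0.12), or 74.2% of wild type (limma, unadjusted *p* = 0.0138, adjusted *p* = 0.274). Over 17 alternative settings the difference ran from -0.61 to -0.34, with an unadjusted *p* under 0.05 in each and an adjusted *p* between 0.100 and 0.535.

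The other tight junction members, *Ocln*, encoding occludin, and *Tjp1*, encoding the scaffold protein ZO-1, had differences of 0.17 (95% interval -0.23 to 0.57) and 0.02 (-0.17 to 0.20). *Cdh5*, which encodes VE-cadherin of endothelial adherens junctions, measured 7.58, 7.64, and 7.75 for wild-type and 7.84, 7.68, and 7.56 for NL-G-F·*Mutyh* mice. The highest and the lowest array were both from NL-G-F·*Mutyh* mice, and the difference was 0.03 (standard error 0.09, limma, adjusted *p* = 0.906). *Pecam1*, encoding the adhesion molecule CD31 found on all endothelium, measured 7.38, 7.58, and 7.53 against 7.65, 7.60, and 7.48. Here wild-type replicate 1 was the lowest array and NL-G-F·*Mutyh* replicate 1 the highest, and the difference was 0.08 (standard error 0.08, limma, adjusted *p* = 0.695). *Esam*, encoding an endothelial adhesion molecule of the immunoglobulin family, and *Emcn*, encoding the sialomucin endomucin, had differences of -0.05 and 0.11, with intervals that included 0. Of these 7 genes, *Cldn5* alone had groups that did not overlap.

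Of the 8 transporters and export pumps, 4 had a difference above 0 and 4 below, with a median of 0.03. *Mfsd2a* encodes the carrier of lysophosphatidylcholine that brings docosahexaenoic acid into the brain and restrains transcytosis in barrier endothelium. Its signals were 8.60, 8.76, and 8.53 on the wild-type arrays and 8.90, 8.93, and 8.77 on the NL-G-F·*Mutyh* arrays. The groups did not overlap, but the lowest NL-G-F·*Mutyh* array (8.77) was close to the highest wild-type array (8.76). The difference was 0.24 (standard error 0.09, 95% interval 0.03 to 0.44), or 118% of wild type (limma, unadjusted *p* = 0.0307, adjusted *p* = 0.328). Leaving out wild-type replicate 1 or 3 or NL-G-F·*Mutyh* replicate 1 or 2 took the unadjusted *p* of *Mfsd2a* to between 0.0710 and 0.101, and centring the arrays on the median of all transcript clusters took it to 0.0764.

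*Slc2a1*, encoding the glucose carrier GLUT1, measured 9.58, 9.74, and 9.79 for wild-type and 9.88, 9.71, and 9.76 for NL-G-F·*Mutyh* mice. NL-G-F·*Mutyh* replicate 1 was the highest and wild-type replicate 1 the lowest array, with the other 4 between 9.71 and 9.79, and the difference was 0.08 (standard error 0.09, limma, adjusted *p* = 0.698). *Slc7a5*, encoding the large neutral amino acid carrier LAT1, measured 9.33, 9.28, and 9.24 against 9.34, 9.11, and 9.01. NL-G-F·*Mutyh* replicates 2 and 3 lay below all wild-type arrays and replicate 1 above them, so that the difference of -0.13 (limma, adjusted *p* = 0.589) had an unadjusted *p* of 0.237 with all arrays and 0.0408 without NL-G-F·*Mutyh* replicate 1. *Slc16a1*, encoding the lactate and ketone body carrier MCT1, had a difference of -0.03, and *Slco1a4*, encoding an organic anion carrier, one of 0.11.

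The export pumps split in sign. *Abcg2*, which encodes the breast cancer resistance protein, measured 6.45, 6.63, and 6.74 for wild-type and 6.75, 6.67, and 6.97 for NL-G-F·*Mutyh* mice. NL-G-F·*Mutyh* replicate 2 fell between the wild-type arrays, and the difference of 0.19 (standard error 0.11) gave an adjusted *p* of 0.479 (limma). *Abcb1a*, which encodes P-glycoprotein and has a close paralogue in *Abcb1b*, had a difference of -0.06 (95% interval -0.29 to 0.17). *Pltp*, encoding phospholipid transfer protein, had the widest interval of the tested endothelial members, -0.61 to 0.45, with wild-type arrays spread from 10.26 to 11.09.

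Of the 8 genes of growth factor receptors and their partners, 3 had a difference above 0 and 5 below. *Robo4* encodes an endothelial receptor of the roundabout family that stabilises vessels. It measured 6.06, 6.09, and 6.04 on the wild-type arrays and 6.44, 6.32, and 6.24 on the NL-G-F·*Mutyh* arrays, so that every NL-G-F·*Mutyh* array lay above every wild-type array. The mean was 6.06 ± 0.03 (SD, n = 3) for wild-type and 6.33 ± 0.10 for NL-G-F·*Mutyh* mice, a difference of 0.27 (standard error 0.08, 95% interval 0.09 to 0.45), or 121% of wild type (limma, unadjusted *p* = 0.0099, adjusted *p* = 0.255). Over 17 alternatives the difference of *Robo4* ran from 0.22 to 0.32, with an adjusted *p* between 0.117 and 0.535.

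The receptors for vascular endothelial growth factor A, *Flt1* (VEGFR1) and *Kdr* (VEGFR2), had differences of -0.04 (95% interval -0.33 to 0.24) and 0.04 (-0.20 to 0.29). The angiopoietin receptor gene *Tek* (TIE2) had a difference of -0.13 (-0.37 to 0.11), and *Tie1*, encoding its co-receptor, one of -0.07. *Ptprb*, encoding the phosphatase VE-PTP that acts on TIE2 and VE-cadherin, had a difference of 0.04. *Eng*, encoding the TGF-beta co-receptor endoglin, and *Ramp2*, encoding the protein that makes the calcitonin receptor-like receptor respond to adrenomedullin, had differences of -0.01 and -0.03. The interval of *Ramp2* (-0.20 to 0.14) was the narrowest of the tested endothelial members.

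Among the 3 transcription factors, *Sox17*, needed for endothelial and arterial identity and for WNT-dependent barrier differentiation, measured 6.20, 6.17, and 5.89 for wild-type and 6.21 on each NL-G-F·*Mutyh* array. The groups did not overlap, but the highest wild-type array (6.20) was close to the lowest NL-G-F·*Mutyh* array (6.21), and the SD of the NL-G-F·*Mutyh* arrays was 0.0024. The difference was 0.12 (95% interval -0.11 to 0.35, limma, adjusted *p* = 0.604) and rested on the low value of wild-type replicate 3, since it was 0.02 without that array. *Erg*, an ETS factor of endothelial cells, had a difference of -0.06, and *Foxq1*, a forkhead factor of brain endothelium, one of 0.03.

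The remaining endothelial members were other surface and secreted proteins. *Itm2a*, encoding a membrane protein of brain endothelium, *Vwf*, encoding von Willebrand factor, and *Egfl7*, encoding a secreted endothelial protein, had differences of 0.01, -0.01, and -0.11, all with intervals that included 0. *Ly6c1*, encoding a surface antigen with near-identical family members, stayed below the intensity minimum in both groups and was not tested. Its signals were 4.31, 5.23, and 5.38 for wild-type and 5.48, 5.39, and 5.59 for NL-G-F·*Mutyh* mice, and wild-type replicate 1 lay far below the other 5 arrays.

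**Figure D2:**
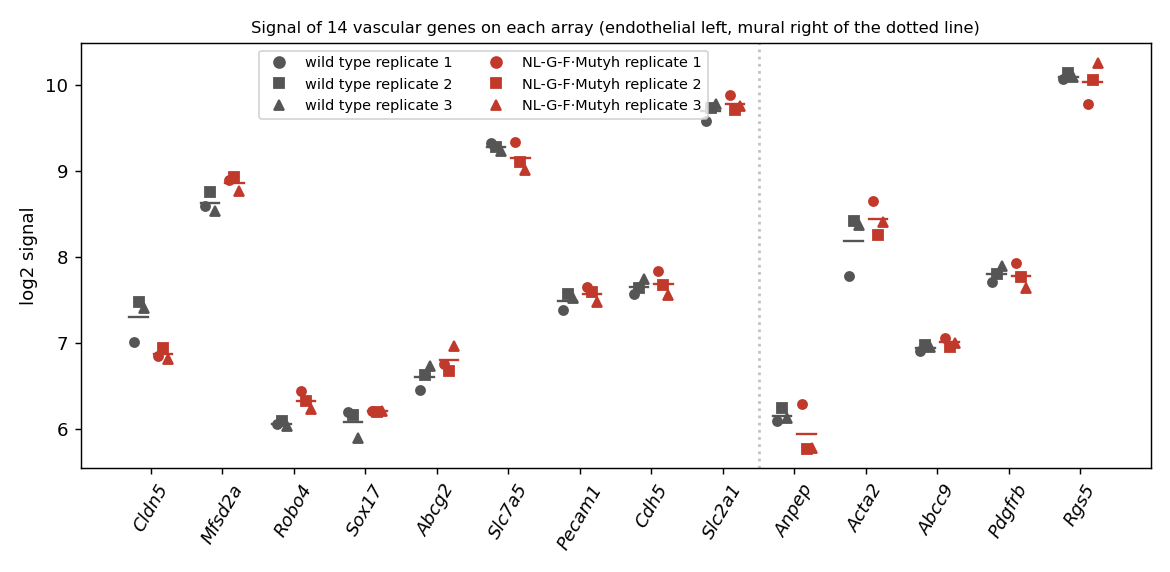
Log2 signal (y axis) of 9 endothelial genes (left of the dotted line) and 5 mural genes (right) on each of the 6 arrays. Gray symbols are wild-type and red symbols NL-G-F·*Mutyh* mice, the shape gives the replicate, and bars are group means. *Cldn5* (lower), *Mfsd2a*, *Robo4*, and *Sox17* (higher) are those of the 14 genes whose groups do not overlap.

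Without overlap between the groups, 3 tested members were higher (*Mfsd2a*, *Robo4*, and *Sox17*) and 1 was lower (*Cldn5*), all endothelial, beside the untested *Ly6c1* (higher) and *Higd1b* (lower). Over all tested transcript clusters 13.9% were higher and 8.11% lower without overlap. The share of the 37 tested members was therefore below the background in each direction with all 6 arrays. Without wild-type replicate 1, 6 members (16.2%) were lower without overlap, against 14.6% of all tested transcript clusters, and in the higher direction the members stayed at 8.11% against 22.1%.

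The 5 tested pericyte members had differences from -0.21 to 0.07. *Pdgfrb*, encoding the platelet-derived growth factor receptor beta that holds pericytes to the vessel, measured 7.71, 7.80, and 7.90 for wild-type and 7.94, 7.76, and 7.64 for NL-G-F·*Mutyh* mice. Both the highest and the lowest array were from NL-G-F·*Mutyh* mice, and the difference was -0.02 (95% interval -0.26 to 0.21, limma, adjusted *p* = 0.937). *Rgs5*, a regulator of G-protein signalling abundant in pericytes, measured 10.07, 10.14, and 10.09 against 9.78, 10.06, and 10.26. The wild-type arrays lay close together and the NL-G-F·*Mutyh* arrays spread on both sides of them, with a difference of -0.07 (-0.36 to 0.23, limma, adjusted *p* = 0.841) that changed sign when the mean of the transcript clusters of *Rgs5* was used (0.03).

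*Anpep*, encoding aminopeptidase N (CD13) of pericytes, measured 6.09, 6.24, and 6.14 for wild-type and 6.29, 5.77, and 5.78 for NL-G-F·*Mutyh* mice. NL-G-F·*Mutyh* replicates 2 and 3 were the lowest arrays and replicate 1 was the highest of all, so that the groups overlapped. The difference was -0.21 (standard error 0.15, limma, adjusted *p* = 0.559). Without NL-G-F·*Mutyh* replicate 1 it was -0.38 with an unadjusted *p* of 0.005 and an adjusted *p* of 0.387. *Abcc9*, encoding the SUR2 subunit of the ATP-sensitive potassium channel of pericytes, measured 6.90, 6.98, and 6.96 against 7.07, 6.96, and 7.00, the narrowest range of the mural members that were tested. Its difference was 0.06 (-0.10 to 0.22, limma, adjusted *p* = 0.703), and that of *Vtn*, which encodes vitronectin and marks brain pericytes, was 0.07.

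*Higd1b*, a gene of brain pericytes, was below the intensity minimum in both groups and was not tested. Its signals were 5.25, 5.27, and 5.27 in wild-type mice and 5.15 on each NL-G-F·*Mutyh* array, where the deposited values were identical. Identical values on all 3 NL-G-F·*Mutyh* arrays were found for 619 of the 41345 transcript clusters (1.5%), against 1 for the 3 wild-type arrays. On at least 2 arrays of a group they were found for 4834 (11.7%) and 122 (0.295%). No tested member had identical NL-G-F·*Mutyh* values. Of the genes of other lists named below, *Aqp4*, *Cx3cr1*, and *Lyve1* had identical values on 2 NL-G-F·*Mutyh* arrays. How the identical values arose, and their effect on the SD, was not tested.

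The 3 contractile members, carried by arteriolar smooth muscle, had differences of 0.25, -0.01, and 0.00. *Acta2*, encoding smooth muscle alpha-actin, measured 7.78, 8.42, and 8.37 for wild-type and 8.65, 8.25, and 8.41 for NL-G-F·*Mutyh* mice. The low wild-type replicate 1 stood apart from the other 5 arrays, which lay between 8.25 and 8.65. The difference was 0.25 (standard error 0.19, 95% interval -0.21 to 0.70, limma, adjusted *p* = 0.588) and was 0.04 without wild-type replicate 1. *Myl9*, encoding the regulatory light chain of smooth muscle myosin, differed by -0.01 (-0.27 to 0.26), and *Tagln*, encoding the actin-binding protein transgelin, by 0.00 (-0.21 to 0.21).

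Set against each other, neither cell class had a median difference beyond the spread of its arrays. Averaged over its 29 genes, the endothelial signal was 7.66 ± 0.09 (SD, n = 3) for wild-type and 7.68 ± 0.07 for NL-G-F·*Mutyh* mice. The mean over the 8 mural genes was 7.79 ± 0.12 and 7.80 ± 0.08. The mural median difference lay 0.01 below the endothelial median, a gap whose sign turned with the array left out (from -0.028 to 0.052).

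The arrays of 1 genotype differed more in their vascular signal than the genotypes did. The mean endothelial signal was 7.56, 7.71, and 7.73 on wild-type arrays 1 to 3 and 7.76, 7.64, and 7.63 on NL-G-F·*Mutyh* arrays 1 to 3. The mean mural signal was 7.65, 7.86, and 7.86 and then 7.88, 7.75, and 7.77. For both cell classes wild-type replicate 1 was the lowest and NL-G-F·*Mutyh* replicate 1 the highest of the 6 arrays. Gene by gene, wild-type replicate 1 was the lowest wild-type array for 19 of 29 endothelial and 8 of 8 mural members (35.1% of all tested transcript clusters), and NL-G-F·*Mutyh* replicate 1 the highest of its group for 18 and 6 (35.7%). NL-G-F·*Mutyh* replicate 3 was the lowest of its group for 16 endothelial members (36.9%).

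Markers of the choroid plexus, a secretory epithelium on fenestrated vessels next to the hippocampus, varied between the arrays far more than the vascular genes did. The mean signal of 9 choroid plexus genes was 6.58, 7.96, and 8.59 on the wild-type arrays and 8.35, 7.09, and 8.29 on the NL-G-F·*Mutyh* arrays, and their summed intensity ran from 3690 to 15002 and from 6794 to 13837. Wild-type replicate 1 and NL-G-F·*Mutyh* replicate 2 were the lowest of their groups for all 9. The same held for 8 of the 29 endothelial members (27.6%; *Ocln*, *Emcn*, *Slc2a1*, *Slco1a4*, *Abcg2*, *Pltp*, *Kdr*, and *Tie1*), for 4 of the 8 mural members (*Abcc9*, *Anpep*, *Acta2*, and *Tagln*), and for 9.33% of all tested transcript clusters. The part of choroid plexus in the vascular values was not tested. With both of these arrays left out, an alternative chosen after seeing the data, *Cldn5* differed by -0.61 (limma, unadjusted *p* = 0.0013, adjusted *p* = 0.448), while *Robo4* (0.27, unadjusted *p* = 0.0589) and *Mfsd2a* (0.19, unadjusted *p* = 0.176) no longer passed the unadjusted threshold.

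**Figure D3:**
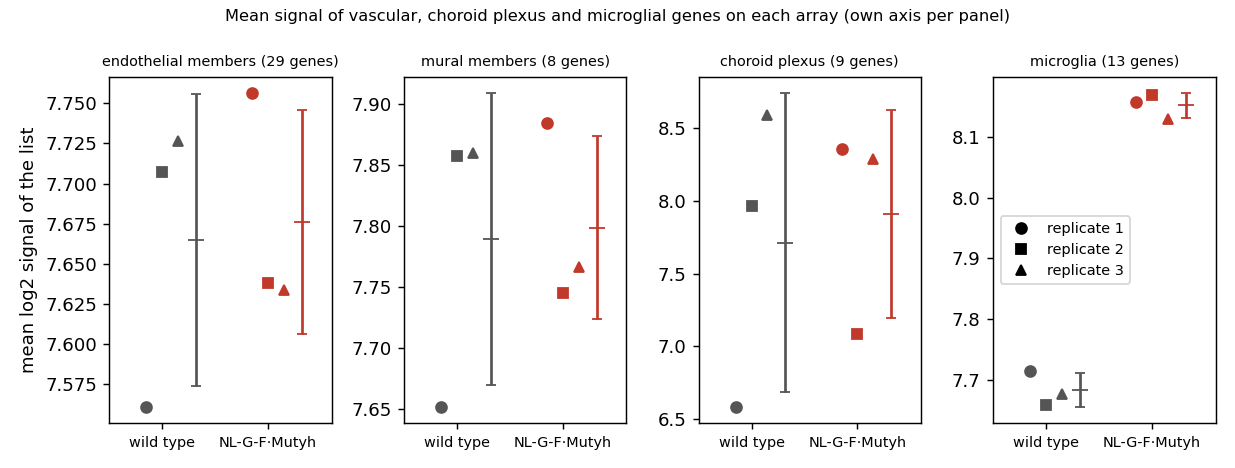
Mean log2 signal (y axis, with its own range in each panel) of the tested endothelial, mural, choroid plexus, and microglial genes on the 6 arrays, gray for wild-type and red for NL-G-F·*Mutyh* mice, with the group mean and SD (n = 3) beside the points. Wild-type replicate 1 is lowest for endothelial, mural, and choroid plexus genes, while the microglial genes separate the groups.

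Some markers of other cells differed between the groups. At an unadjusted *p* under 0.05, 8.88% of all tested transcript clusters were higher and 4.75% lower. Of 13 microglial genes, 10 were higher at that threshold, and *Cd68* and *Ctss* passed the adjusted test. *Itgam* (0.14), *Cx3cr1* (0.00), and *Tmem119* (-0.12) did not pass the unadjusted threshold. The median difference of the list was 0.53. Its summed intensity was 3398 to 3600 for wild-type and 5106 to 5415 for NL-G-F·*Mutyh* mice. Among 10 markers of astrocytes and their endfeet, which cover brain vessels, 9 had a difference above 0 and 1 below, and *Gfap* and *Gjb6* were higher. *Aldh1l1*, the marker below 0, was lower without overlap (-0.23) but did not pass (limma, unadjusted *p* = 0.0614). *Aqp4*, the water channel gene of endfeet, did not pass either (0.22, unadjusted *p* = 0.101). Of 4 markers of border macrophages, which lie along larger vessels, *Lyve1*, *Mrc1*, and *F13a1* were higher, *F13a1* with overlap between the groups. *Cbr2* did not pass (0.06, limma, unadjusted *p* = 0.694). Of 10 perivascular and meningeal fibroblast genes, 3 had a difference above 0 and 7 below. *Aox3* alone was lower at the unadjusted threshold, with overlap between the groups and against 4.75% of all tested transcript clusters. Of 7 oligodendrocyte genes, 4 had a difference below 0 and 3 above, with a median of -0.15. *Mbp*, *Mog*, and *Cnp* were lower, each without overlap between the groups, as were 8.11% of all tested transcript clusters. *Mobp* (0.15), *Cldn11* (0.09), and *Ermn* (0.05) were the genes above 0. The summed intensity of the list was 6277 to 7192 for wild-type and 6185 to 7277 for NL-G-F·*Mutyh* mice. Of 10 neuronal genes, *Tubb3* was lower without overlap (-0.45, standard error 0.12, limma, unadjusted *p* = 0.0079, adjusted *p* = 0.237), a difference of about the size of that of *Cldn5*, and the list's median difference was 0.04. None of the 9 choroid plexus genes passed in either direction. Of the blood cell list only *Ptprc* could be tested, which was higher (0.96). *Ptprc* is a gene of leukocytes in general, microglia among them, so that it does not measure blood cells. *Slc4a1*, *S100a8*, and *S100a9* were below the intensity minimum. The part of all these other cell types in the vascular values was not tested.

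As a check of the tissue, all 10 neuronal markers were above the intensity minimum, which does not tell the genotypes apart. *App* measured 12.05 ± 0.09 for wild-type and 11.94 ± 0.12 for NL-G-F·*Mutyh* mice, and *Mutyh* was below the intensity minimum in both groups (5.28 ± 0.17 and 5.42 ± 0.05), so that its signal does not check the deletion. The array medians lay between 5.55 and 5.64 for wild-type and between 5.65 and 5.66 for NL-G-F·*Mutyh* mice, so that the groups did not overlap. Centred on these medians, 7.27% of all tested transcript clusters were higher and 12.8% lower without overlap, against 13.9% and 8.11% before. The balance of the background between the directions therefore depends on the level of the arrays. Correlations between arrays of 1 group lay between 0.983 and 0.990.

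Beyond the members, 135 further vascular genes were listed by function, of which 108 were tested. None passed the adjusted test, 5 were higher and 4 lower at an unadjusted *p* under 0.05, and the median difference was -0.02. At that threshold 8.88% of all tested transcript clusters were higher and 4.75% lower, so that both counts were below the background. Among 8 other tight junction genes, *Jam2*, encoding a junctional adhesion molecule of endothelium and glia, was higher (0.28, standard error 0.08, limma, unadjusted *p* = 0.011, adjusted *p* = 0.261), and *Cldn3*, encoding a claudin better known from epithelia, was lower (-0.24, unadjusted *p* = 0.0349).

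WNT signalling, which induces the barrier in brain endothelium, was covered by 15 genes, *Sox17* among them, with a median difference of 0.01. *Wnt7a*, encoding a ligand that neural cells present to the vessels, was lower (-0.44, standard error 0.12, limma, unadjusted *p* = 0.0098, adjusted *p* = 0.254). *Axin2*, a transcriptional target of the pathway, had a difference of -0.18 (unadjusted *p* = 0.0512), and the ligand gene *Wnt7b* one of -0.26 (unadjusted *p* = 0.122), neither past the threshold. Of 17 ligands and co-receptors, the co-receptor gene *Nrp1* was higher (0.21) and the growth factor gene *Vegfb* lower (-0.20), each at an unadjusted *p* under 0.05.

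Of 24 other endothelial genes, *Palmd*, encoding palmdelphin, was higher (0.19) and *Sox18*, encoding a relative of SOX17, lower (-0.34). Of 8 arterial and venous genes, *Gja5*, encoding the arterial gap junction protein connexin 40, and *Slc38a5*, encoding a glutamine carrier, were higher (0.20 and 0.33). No gene passed the unadjusted threshold among 8 genes of endothelial activation and fenestration, 16 other pericyte and smooth muscle genes, and 14 genes of the vascular basement membrane. Their median differences were 0.02, -0.05, and -0.02. Among them were the adhesion molecule gene *Icam1* (0.15, unadjusted *p* = 0.119), the fenestral diaphragm gene *Plvap* (-0.16, unadjusted *p* = 0.123), and the pericyte factor gene *Foxf2* (-0.21, unadjusted *p* = 0.0518).

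**Figure D4:**
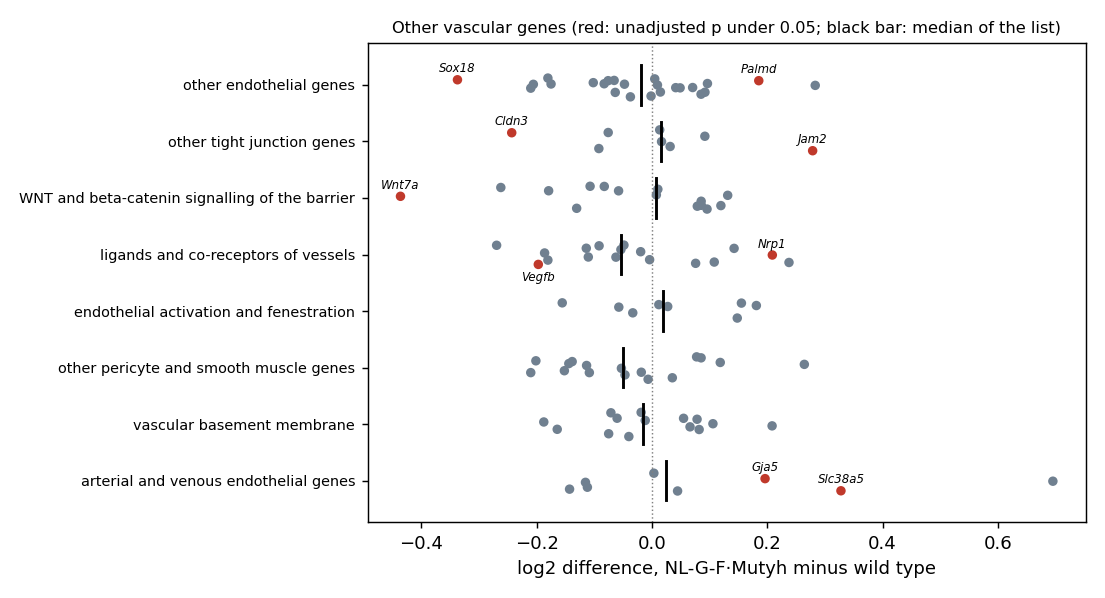
Log2 difference (x axis, NL-G-F·*Mutyh* minus wild type) of the tested genes of 8 further vascular lists, 1 point per gene and list. Red points have an unadjusted *p* under 0.05 and are named, black bars are list medians, and the medians lie between -0.05 and 0.02.

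Several members share a chromosome with the altered loci. In the order of protein-coding genes in RefSeq (GRCm38.p6), 32 genes lie between *Mutyh* and *Tie1* on chromosome 4, 51 between *Mutyh* and *Slc2a1*, 95 between *Mutyh* and *Mfsd2a*, and 180 between *Mutyh* and *Tek*. On chromosome 16, 125 genes lie between *App* and *Erg* and 364 between *App* and *Cldn5*, and 2 lie between *App* and *Jam2*. Whether a flanking segment of the altered alleles bears on their values was not tested.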

How the data were processed

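The authors ran their array files through Transcriptome Analysis Console 4.0, and the deposited values, log2 signals of transcript clusters, were not normalized again. How the software summarized and normalized the probes, and on which genome build, is not given in the sources used here. Of the 41345 transcript clusters, 23521 carried 1 gene symbol, 1820 several, and 16004 none, and genes were named only from those with 1. Groups were taken from the labels. Transcript clusters with a mean intensity of at least 50 in 1 or both groups were fitted with limma 3.58.1 (R 4.3.3) and its two-sided moderated test and Benjamini-Hochberg adjustment over all 21159. The number of arrays limits the precision, and no counts lie behind these values. The fit was also run on simulated data with independent noise. These held no shift shared by the genes of an array, so that the run does not cover such shifts.

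The members and lists were chosen with earlier results of these data known. Given in full are members with an unadjusted *p* under 0.05 or without overlap between groups, the 5 endothelial and 3 mural members with the smallest *p*, and 7 identity markers, and for other lists up to 3 genes with the smallest *p*. A comparison of member protein sequences was not run. Replicate numbers did not pair the arrays. Alternatives were other intensity minimums, quantile normalization, array medians as centres, only transcript clusters with 1 symbol, array weights, robust moderation with an intensity trend, the omission of each array in turn, a replicate block, gene means over transcript clusters, and the omission of 2 arrays, added after seeing the data.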

Additional observations from a re-analysis of the deposited data

How the results depend on the processing

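No member passed the adjusted test in any of 17 alternatives. *Cldn5*, *Mfsd2a*, and *Robo4* kept their direction in all of them. With a replicate block, where same-numbered arrays correlated between -0.10 and 0.02 in their deviations, the same 3 members had an unadjusted *p* under 0.05, the lowest adjusted *p* of a member was 0.377, and 2 transcript clusters passed over all, against 13. Over all tested transcript clusters, 42 passed with array weights, 43 with single-symbol transcript clusters or with gene means, 8 with the minimum in both groups, and 2 or 3 with 1 array left out.

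Leaving out 1 array at a time gave 1 to 2 endothelial members higher and 1 to 2 lower at an unadjusted *p* under 0.05, 0 mural members higher and 0 to 1 lower (*Anpep*, without NL-G-F·*Mutyh* replicate 1), 3 to 7 members higher (8.11% to 18.9%, against 17.2% to 22.1% of all tested transcript clusters) and 1 to 6 lower (2.7% to 16.2%, against 10.6% to 15.4%) without overlap, an endothelial median of -0.04 to 0.03, a mural median of -0.07 to 0.05, and a gap between the mural and the endothelial median of -0.028 to 0.052. Without NL-G-F·*Mutyh* replicate 1, 8.11% of the members were lower at an unadjusted *p* under 0.05, against 3.77% of all. The sign turned for *Cdh5* (-0.041 to 0.099, below 0 without replicate 1 of either group), *Pdgfrb* (-0.10 to 0.045, above 0 without replicate 3 of either group), and *Rgs5* (-0.18 to 0.062, above 0 without NL-G-F·*Mutyh* replicate 1). With no intensity minimum 2 members were lower without overlap, since *Higd1b* was added. Quantile normalization left 1 member higher without overlap. Centring on the median of all transcript clusters, which moved the median of all tested differences to -0.03, left 1 endothelial member higher at an unadjusted *p* under 0.05 and gave *Cdh5* -0.017. Gene means of the transcript clusters gave a gap of 0.019 and *Rgs5* 0.028. Without wild-type replicate 1 and NL-G-F·*Mutyh* replicate 2, chosen after seeing the data, 0 endothelial members were higher at an unadjusted *p* under 0.05, 5 members were higher (13.5%, against 26.3% of all) and 6 lower (16.2%, against 18.4%) without overlap from fewer arrays, and *Cdh5* was at -8e-05. The cause of these shifts was otherwise not tested. Of the values named, 148 summary values stayed and 22 moved, and 230 gene differences kept their sign and 8 did not. With 3 arrays a group, the median half-width of the members' 95% intervals was 0.24.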
